A study of Homo sapiens and Mus musculus with 13 samples.

Results

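In all, 10 genes of cell-surface adhesion molecules were followed through the human libraries of the study: MCAM, ALCAM, BCAM, L1CAM, ICAM1, VCAM1, F11R, CD44, CD47 and BSG. The study had picked MCAM for its order on these libraries, and the other 9 were chosen by name as molecules related to it in structure or function, with earlier results of these data known. All 10 were present among the 24523 gene symbols of the human table, and all 10 passed the minimum mean of 0.5 FPKM that left 12636 genes for comparison. FPKM is a number of fragments scaled by transcript length and library size, so that levels of different genes can be set side by side on it.

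Expression was measured by RNA-Seq in 7 MDA-MB-231 libraries. MDA-MB-231 cells come from a human breast cancer and have mesenchymal features. All lines carried a lentiviral Cas9 and guide RNA construct and had been selected with puromycin. The 1 Control line had a guide against GFP. The 2 TRIM11-KD lines had TRIM11 guide 1 or 2, the 2 KDM5C-KD lines had KDM5C guide 1 or 2, and the 2 double knockdown (DKD) lines had KDM5C guide 2 together with TRIM11 guide 1 (DKD1) or 2 (DKD2). KDM5C guide 1 was therefore never combined with a TRIM11 guide, and each combination of guides was 1 library. The sources used here do not say whether a line was a clone or a pool, so the spread between the 2 lines of a group may come from the guide, the line or the library. Mammary tumors of 3 Trim11+/+ and 3 Trim11+/- mice, 3 months old, served for the mouse counterparts. All 6 mice carried the MMTV-PyVT transgene, a viral oncogene driven in the mammary gland, on a hybrid background of C57BL/6N and FVB/N, and the Trim11+/- mice lacked exons 2 to 6 of Trim11 on 1 allele.

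Most of these proteins belong to the immunoglobulin superfamily, with extracellular immunoglobulin domains that bind the same protein on a neighboring cell, an integrin or the matrix. MCAM was first known from melanoma and is normally prominent on endothelium, pericytes and smooth muscle, where it binds laminins and acts with growth factor receptors. ICAM1 and VCAM1 are the integrin ligands that inflamed endothelium displays to leukocytes, and their genes are classic targets of NF-kappaB. KDM5C is a demethylase of methylated lysine 4 on histone H3, and TRIM11 is the ubiquitin ligase that the study examined as a regulator of KDM5C.

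The libraries had total FPKM between 493543 and 513462, and Pearson's r between them was 0.948 to 0.984 on the log2(FPKM + 1) scale. Read depth is unknown, since the FPKM values do not hold it, and no counting error can be given. KDM5C was at 18.8 to 22.7 FPKM in the 4 libraries with a KDM5C guide and at 28.4 to 30.3 in the other 3, with no overlap. TRIM11 was at 13.4 FPKM in the library labelled TRIM11-KD1 and 16.1 in the library labelled DKD1, both above the 12.6 of Control, and at 10.6 and 9.38 with TRIM11 guide 2. The mRNA level goes against the labels TRIM11-KD1 and DKD1. Cas9 cuts need not lower the mRNA of a gene, and the study checked its lines by the protein. VIM, a mesenchymal marker, was at 1038 to 1309 FPKM, while ESR1 was at most 0.0234 and PGR was listed at 0 in every library. ERBB2 at 17.8 to 23.7 FPKM and CLDN4 at 94.3 to 171 were not absent.

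The promoters of MCAM, as the gene followed, and of ICAM1 and VCAM1, as the members named above as targets of NF-kappaB, are shown. Each is the 250 bases before the start site in RefSeq (GRCh38.p14), found by an exact match at 1 place on hg19: chr11:119187841-119188090 on the minus strand for MCAM, chr19:10381546-10381795 on the plus strand for ICAM1 and chr1:101185048-101185297 on the plus strand for VCAM1. The 3′ end of the ICAM1 window reaches into the first exon of the annotation used here, and the MCAM window lies within the longer span that this annotation gives the gene. Capitals mark matches of GGNNNTTCC, a loose form of the NF-kappaB motif, on either strand.
MCAM: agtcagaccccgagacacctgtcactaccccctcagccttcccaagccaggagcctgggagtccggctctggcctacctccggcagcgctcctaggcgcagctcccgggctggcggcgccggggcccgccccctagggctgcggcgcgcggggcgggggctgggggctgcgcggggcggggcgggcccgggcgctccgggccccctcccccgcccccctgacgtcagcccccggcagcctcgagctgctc
ICAM1: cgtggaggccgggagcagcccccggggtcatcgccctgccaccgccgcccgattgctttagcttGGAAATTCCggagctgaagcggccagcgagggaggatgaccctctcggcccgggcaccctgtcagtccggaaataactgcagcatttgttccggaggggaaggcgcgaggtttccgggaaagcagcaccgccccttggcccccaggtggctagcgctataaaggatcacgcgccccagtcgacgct
VCAM1: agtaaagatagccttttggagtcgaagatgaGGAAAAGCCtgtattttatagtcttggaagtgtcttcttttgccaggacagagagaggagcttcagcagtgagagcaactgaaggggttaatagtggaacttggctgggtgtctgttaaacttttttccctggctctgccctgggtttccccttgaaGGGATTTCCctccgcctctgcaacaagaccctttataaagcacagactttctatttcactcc
ICAM1 held a match at 186 to 178 bases before the start site, which reads as the motif on both strands. VCAM1 held a match at 62 to 54 bases before the start site and another, on the opposite strand, at 219 to 211. MCAM held none in this window, which was 79.6% G and C against a median of 58% over all promoters. Of the 9 members with a promoter in the table, 3 held a match, the other being BSG, and 17.1% of all 35116 promoters did. L1CAM and CD44, which also differ between libraries below, held no match and are not shown. A match is a description of the letters and not a binding site.

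MCAM (ENSG00000076706.17_10, hg19 chr11:119179239-119192231, minus strand) was highest in the KDM5C-KD lines. It was at 28.1 FPKM in Control, 24.2 and 20.4 in the TRIM11-KD lines 1 and 2, 39.3 and 76.6 in the KDM5C-KD lines, and 32.2 and 18.6 in the DKD lines. Both KDM5C-KD lines lay above all 5 other libraries. The mean was 58.0 ± 26.3 (SD, n = 2) in KDM5C-KD, 2.06 times Control, against 22.3 ± 2.67 (SD, n = 2) in TRIM11-KD and 25.4 ± 9.63 (SD, n = 2) in DKD. The study chose MCAM for this order on these libraries, so that these values are a description and no p is given for them. It also reported histone methylation at an MCAM enhancer, quantitative RT-PCR and repression of that enhancer, which were not analysed here.

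The size of the difference rested on KDM5C-KD2. It was 2.72 times Control and 1.95 times KDM5C-KD1, while KDM5C-KD1 was 1.40 times Control and did not reach the 1.5-fold threshold of the study. The DKD lines did not share a level either, with DKD1 above Control and DKD2 the lowest library of all. KDM5C-KD2 and both DKD lines have the same KDM5C guide, and among these 3 libraries MCAM was at 76.6, 32.2 and 18.6 FPKM. On the log2(FPKM + 1) scale, which understates changes of low genes, the difference of KDM5C-KD from DKD was 1.13 (SE 0.37) in limma and that from TRIM11-KD was 1.27 (SE 0.37). CBL, which the annotation places over MCAM on the opposite strand, was at 9.32 to 11.5 FPKM in the 7 libraries and lowest in KDM5C-KD1. The libraries do not mark strand, so reads from the shared stretch cannot be told apart.

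**Figure D1:**
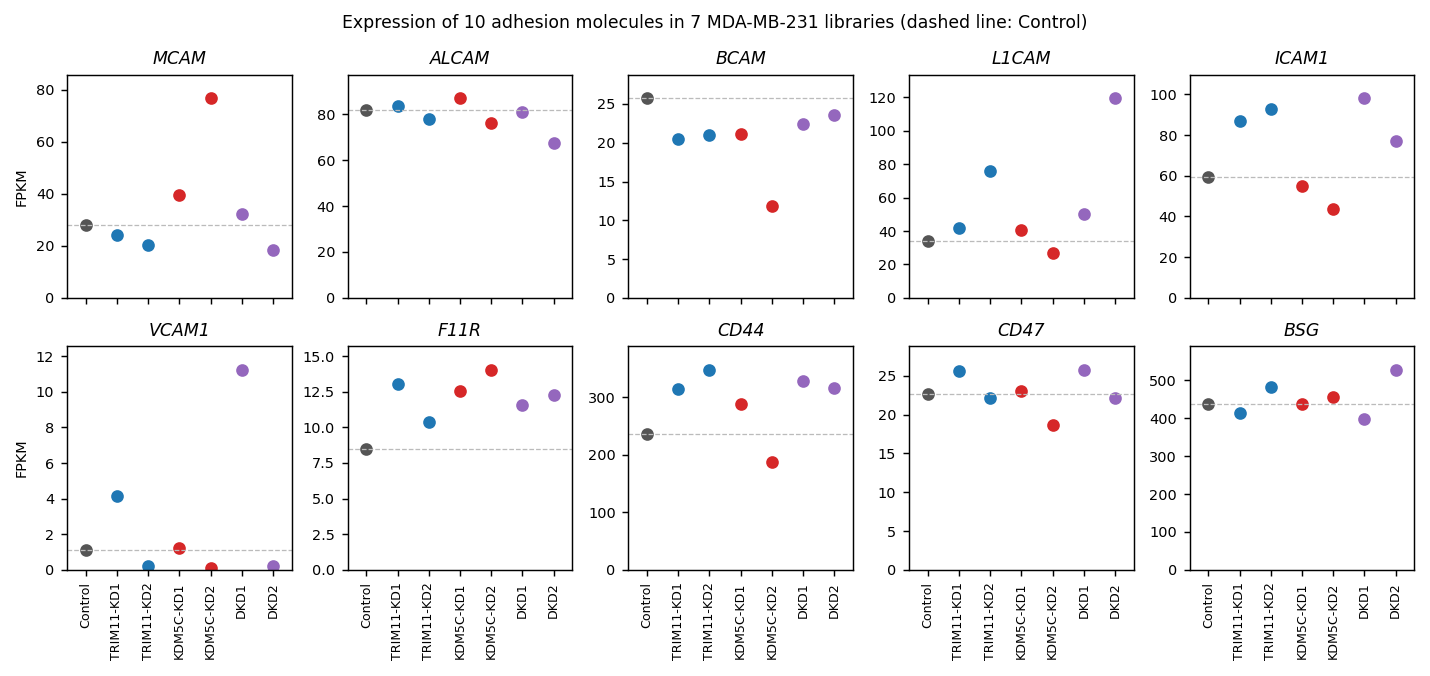
FPKM of the 10 adhesion molecules (vertical axes, each from 0) in the 7 MDA-MB-231 libraries (horizontal axis), 1 point per library, with gray for Control, blue for TRIM11-KD, red for KDM5C-KD and purple for DKD, and the Control level dashed. MCAM is highest in KDM5C-KD1 (39.3) and KDM5C-KD2 (76.6), ICAM1 is lowest in the same lines (54.7 and 43.5), and ALCAM, CD47 and BSG stay within 1.38 times from their lowest to their highest library.

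To ask whether this pattern was its own, the order of MCAM was looked for in its relatives: both KDM5C-KD lines above Control and both DKD lines below both KDM5C-KD lines. Of the other 9 members, only F11R showed it, against 12.8% of all genes. None of the other 9 had both KDM5C-KD lines above all 5 other libraries, as 8.58% of all genes did. BCAM and ICAM1 showed the mirrored order, below Control and below both DKD lines in KDM5C-KD, which 11.6% of all genes did. ICAM1 was below all 5 other libraries in both KDM5C-KD lines, the reverse of MCAM, as 6.88% of all genes were. The 1 of 9 members with the order of MCAM is near the share of all genes.

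The profiles gave the same picture. Pearson's r with MCAM over the 7 libraries, on log2(FPKM + 1), was 0.44 for F11R, 0.24 for ALCAM, -0.08 for VCAM1, -0.31 for BSG, -0.56 for CD47, -0.77 for ICAM1, -0.79 for L1CAM and -0.81 for both CD44 and BCAM. None of the 9 reached 0.5, which 22.3% of all genes did, and 5 of 9 were at -0.5 or lower, which 21.4% of all genes were. Spearman's rho was 0.43 for F11R, -0.36 for BCAM, -0.54 for ICAM1, -0.64 for CD44 and -0.82 for L1CAM. The points share 1 cell line of origin and are 7 in number, and no p is given.

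KDM5C-KD2 decided most of these coefficients. It was the highest library for 2 members, MCAM and F11R, and the lowest for 6, BCAM, L1CAM, ICAM1, VCAM1, CD44 and CD47, and over all genes it was the highest in 24.3% and the lowest in 23.4%. Without it, over 6 libraries, r with MCAM was -0.06 for BCAM, -0.38 for CD44, -0.48 for ICAM1, 0.37 for CD47 and 0.80 for ALCAM, while L1CAM stayed at -0.75. In these 6 libraries 1 of the 9 members, ALCAM, reached 0.5, against 21% of all genes, and 2, L1CAM and BSG, were at -0.5 or lower, against 20.8%. Without KDM5C-KD2 and DKD2, the libraries farthest from the median of MCAM, r was -0.57 for L1CAM, -0.59 for ICAM1 and 0.16 for BCAM. The negative sign of L1CAM, ICAM1 and CD44 held in each of these sets of libraries, and that of BCAM and CD47 did not.

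**Figure D2:**
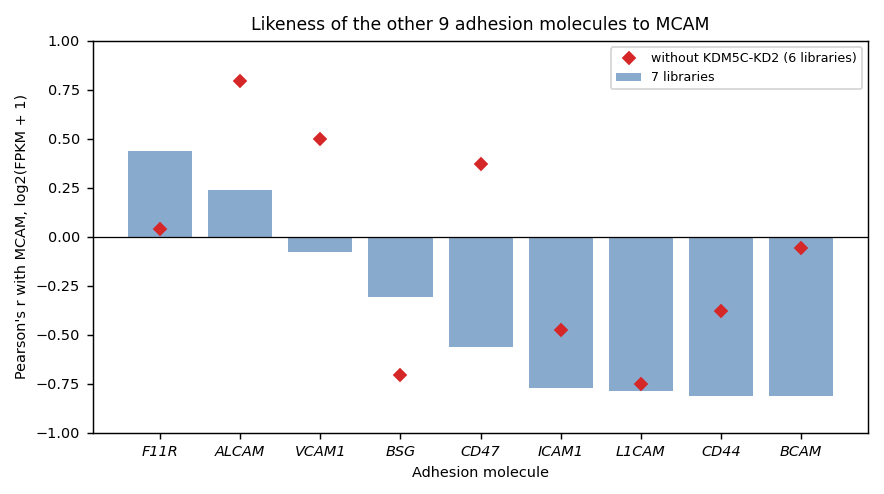
Pearson's r of each of the other 9 adhesion molecules with MCAM on log2(FPKM + 1) (vertical axis), as bars over the 7 libraries and as red diamonds over the 6 libraries without KDM5C-KD2. The bars run from 0.44 for F11R to -0.81 for BCAM, and the diamonds move to 0.80 for ALCAM and -0.06 for BCAM while L1CAM stays at -0.75.

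The 5 genes with the profile most like that of MCAM were none of the adhesion molecules listed here. Among 8520 genes with a mean of at least 5 FPKM, with ribosomal protein and small RNA genes passed over, the highest r was 0.99 for PHTF2, DHRS4L2, CBFB and CYSTM1 and 0.98 for CYLD. CBFB encodes the partner subunit of the RUNX transcription factors, and CYLD a deubiquitinase that restrains NF-kappaB. CYSTM1 was at 23.7 FPKM in Control, 19.5 and 17.5 in TRIM11-KD, 26.8 and 47.0 in KDM5C-KD, and 23.0 and 17.1 in DKD. The lowest r was -0.99 for SMG9, SHC1, NAB2 and YES1 and -0.98 for ABL1. SHC1 encodes an adaptor of receptor tyrosine kinases, and YES1 and ABL1 encode tyrosine kinases of the cytoplasm. SHC1 was at 73.8 FPKM in Control, 73.0 and 83.7 in TRIM11-KD, 58.4 and 45.4 in KDM5C-KD, and 69.2 and 85.5 in DKD.

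The genes next to MCAM on chromosome 11 did not share its order as a block. Neighbors were matched by their newer symbols, so a gene listed here under an older one, such as PVRL1, could not be among them. Of the 3 nearest matched genes with a mean of at least 0.5 FPKM on each side, USP2-AS1, an antisense RNA gene, was 34.9 kb away. It went from 1.28 FPKM in Control to 2.26 and 2.58 in KDM5C-KD, with 1.85 and 1.98 in DKD and 1.09 and 1.13 in TRIM11-KD. USP2-AS1 thus had the order of MCAM, with both KDM5C-KD lines above all other libraries, as 8.58% of all genes had. RNF26, a ubiquitin ligase gene 13.0 kb away, was at 41.1 FPKM in Control, 45.9 and 49.6 in KDM5C-KD and 44.8 and 49.9 in DKD. HINFP, NLRX1, CCDC153 and TRIM29 were farther off, at 172, 125, 112 and 790 kb. Their mean log2 ratios of KDM5C-KD to Control were 0.08, 0.21, 0.64 and 0.57, in that order.

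ALCAM, BCAM and L1CAM are the members named as cell adhesion molecules beside MCAM. ALCAM, a receptor for itself and for CD6 of T cells, was at 82.0 FPKM in Control, 83.6 and 78.0 in TRIM11-KD, 86.8 and 76.0 in KDM5C-KD, and 81.0 and 67.5 in DKD. No group stood apart, and its coefficient of variation over the 7 libraries, 7.92%, was exceeded by 89.6% of all genes. That of MCAM was 58.5%, exceeded by 5.39%, and the median of all genes was 16.1%.

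BCAM, a receptor of laminin, was at 25.7 FPKM in Control, 20.5 and 21.0 in TRIM11-KD, 21.2 and 11.9 in KDM5C-KD, and 22.4 and 23.5 in DKD. Control was the highest library and KDM5C-KD2 the lowest, with KDM5C-KD1 just above both TRIM11-KD lines. L1CAM, a molecule of axon growth that many carcinomas express, was at 34.3 FPKM in Control, 41.8 and 76.0 in TRIM11-KD, 40.6 and 26.7 in KDM5C-KD, and 50.4 and 119 in DKD. It was higher in every library labelled with a TRIM11 guide than in every library without, by a narrow margin at its lowest, and highest in the libraries with TRIM11 guide 2. L1CAM and MCAM had nearly the same range, 4.48 and 4.13 times from the lowest to the highest library, and their order over the libraries was nearly opposite, with a Spearman's rho of -0.82.

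ICAM1 and VCAM1 bind the integrins of leukocytes, and they behaved differently from each other. ICAM1 (ENSG00000090339.9_6, hg19 chr19:10381769-10397291, plus strand) was at 59.5 FPKM in Control, 87.1 and 92.7 in TRIM11-KD, 54.7 and 43.5 in KDM5C-KD, and 98.0 and 76.9 in DKD. All 4 libraries labelled with a TRIM11 guide were above all 3 without, whether or not they also had the KDM5C guide. LIMASI and ICAM4-AS1 overlap ICAM1 on the opposite strand, and their reads cannot be told apart from its own there.

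VCAM1 (ENSG00000162692.12_7, hg19 chr1:101185298-101204601, plus strand) was the lowest member. It was at 1.10 FPKM in Control, 4.14 and 0.204 in TRIM11-KD, 1.22 and 0.121 in KDM5C-KD, and 11.2 and 0.211 in DKD. Line 2 of each knockdown was under the Control level and line 1 was above it. Between the libraries with TRIM11 guide 1 and those with guide 2 the ratio of means was 36.9, and these did not overlap, as for 44.6% of all genes. Guide and line cannot be told apart here, and KDM5C-KD2, with no TRIM11 guide, was the lowest library. Of the other members, MCAM, ALCAM and CD47 were also higher with TRIM11 guide 1, and L1CAM and BSG with TRIM11 guide 2.

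F11R, CD44, CD47 and BSG have other roles at the cell surface. F11R, a molecule of tight junctions, was at 8.50 FPKM in Control, 13.0 and 10.4 in TRIM11-KD, 12.5 and 14.0 in KDM5C-KD, and 11.6 and 12.3 in DKD. All 6 knockdown libraries were above Control, so that the order it shared with MCAM came with higher values in every group. TRIM11-KD1 was higher than KDM5C-KD1, which MCAM did not show.

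CD44, the receptor of hyaluronan and a marker of mesenchymal breast cancer cells, was at 237 FPKM in Control, 314 and 347 in TRIM11-KD, 289 and 188 in KDM5C-KD, and 328 and 317 in DKD. The libraries labelled with a TRIM11 guide were all above the others. CD47, the ligand of SIRPA that restrains phagocytosis, was between 18.6 and 25.7 FPKM. BSG, which escorts lactate transporters to the membrane, was the most abundant member at 399 to 527 FPKM. Neither separated the groups. By mean FPKM over the 7 libraries the order of levels was BSG at 451, CD44 at 289, ALCAM at 79.3, ICAM1 at 73.2, L1CAM at 55.6, MCAM at 34.2, CD47 at 22.9, BCAM at 20.9, F11R at 11.7 and VCAM1 at 2.60. Neighbors in this order overlapped in their ranges, except BSG with CD44 and CD44 with ALCAM.

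**Figure D3:**
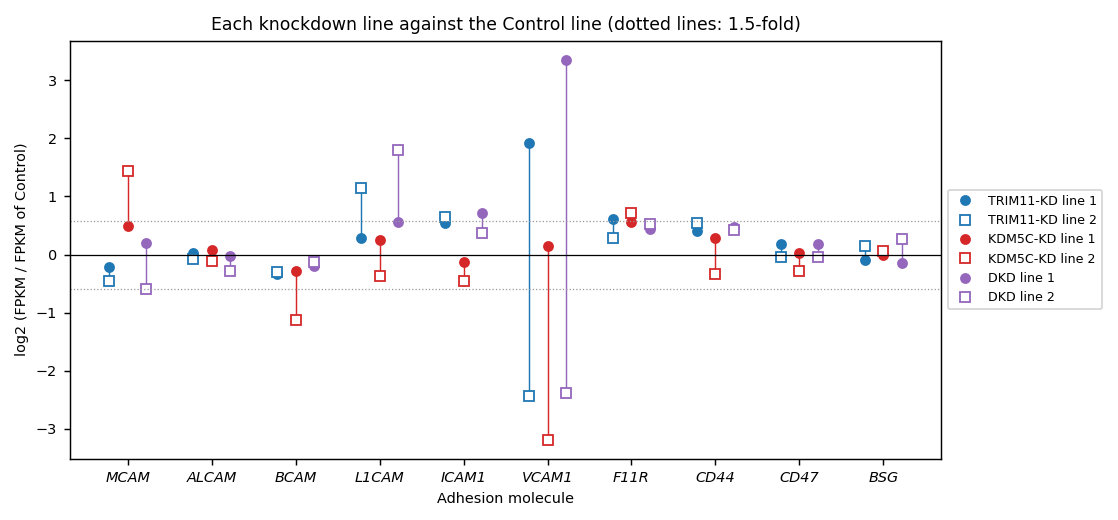
The log2 ratio of FPKM to the 1 Control library (vertical axis) for the 10 adhesion molecules (horizontal axis), with filled circles for line 1 and open squares for line 2 of TRIM11-KD (blue), KDM5C-KD (red) and DKD (purple), and 1.5-fold dotted. No member has both lines of a group beyond 1.5-fold on the same side, and VCAM1 spans from 0.110 times Control in KDM5C-KD2 to 10.2 times in DKD1.

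For the comparison with Control, which is a lone library and allows no test, a call needed a change of 1.5-fold or more in the same direction in line 1 and in line 2. None of the 10 members met this in TRIM11-KD, KDM5C-KD or DKD, against 5.83%, 9.2% and 10.6% of all genes. ICAM1 came close in TRIM11-KD, at 1.46 and 1.56 times Control, and F11R in KDM5C-KD, at 1.47 and 1.65 times. By the mean of both lines, 4 members passed 1.5-fold in KDM5C-KD, with MCAM and F11R above and BCAM and VCAM1 below, against 16.7% of all genes. By the same rule L1CAM, ICAM1 and VCAM1 were above in TRIM11-KD, against 11.9% of all genes, and L1CAM and VCAM1 were above in DKD, against 17.9%. Without a fold threshold, both KDM5C-KD lines were above Control for F11R, besides MCAM, as for 34.7% of all genes, and below it for BCAM and ICAM1, as for 36.7%, and the other 6 members lay on either side. L1CAM, ICAM1, F11R and CD44 were above Control in both lines of TRIM11-KD and again in both lines of DKD, 4 of 10 members, against 32.6% and 35.7% of all genes. These comparisons share the Control library.

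Contrasts among the knockdown groups were fitted by limma to log2(FPKM + 1) of the 6 knockdown libraries, with p-values adjusted by the Benjamini-Hochberg method over 12636 genes. In none of the 3 contrasts did any member, or any gene at all, pass an adjusted p of 0.05. At an unadjusted p under 0.05 there were 2 of the other 9 members between KDM5C-KD and DKD, ICAM1 and L1CAM, against 11.7% of all genes. There was 1 between KDM5C-KD and TRIM11-KD, ICAM1, against 9.82%, and none between DKD and TRIM11-KD, against 7.03%.

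ICAM1 had the smallest adjusted p of the members. Its log2 difference was -0.82 (SE 0.17) between KDM5C-KD and DKD, with a limma adjusted p of 0.379, and -0.87 (SE 0.17) between KDM5C-KD and TRIM11-KD, with an adjusted p of 0.494. That of L1CAM between KDM5C-KD and DKD was -1.21 (SE 0.47), with an adjusted p of 0.414, and moved to -0.60 without DKD2 and -1.83 without DKD1. Between DKD and TRIM11-KD the log2 difference of ICAM1 was -0.05, with a 95% confidence interval from -0.46 to 0.36, and it was 0.12 without DKD2 and -0.22 without DKD1. Besides MCAM, KDM5C-KD and DKD did not overlap in 5 of the other 9 members, F11R higher and BCAM, L1CAM, ICAM1 and CD44 lower, but 43.3% of all genes did not overlap between 2 lines and 2.

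The 3 libraries without a TRIM11 guide were also set against the 4 labelled with 1, a grouping added after the data were seen. ICAM1 was at 76.9 to 98.0 FPKM with a TRIM11 guide and 43.5 to 59.5 without, CD44 at 314 to 347 and 188 to 289, and L1CAM at 41.8 to 119 and 26.7 to 40.6. These 3 of 10 members were higher with no overlap, which was so for 4.2% of all genes, and none was lower with no overlap, which was so for 4.55%. As the grouping was made with the values known, these counts are a description and no test is given for them.

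In a limma fit with a term for each guide over the 7 libraries, the log2 difference with a TRIM11 guide was 0.72 (SE 0.13) for ICAM1, 0.47 (SE 0.15) for CD44 and 1.01 (SE 0.35) for L1CAM, and the adjusted p was 0.448 for each. Of the other 9 members, these 3 were those with an unadjusted p under 0.05, against 10.7% of all genes, and no gene had an adjusted p under 0.05. As the fit uses the grouping made with the values known, its p-values for these 3 are a description and no support. Without KDM5C-KD2 the difference was 0.32 for CD44 and 0.81 for L1CAM, and without DKD2 it was 0.65 for L1CAM. For MCAM it was -0.81 (SE 0.30), or -0.49 without KDM5C-KD2 and -0.54 without DKD2, and no p is given. VCAM1 had 0.87 (SE 0.86), with values on both sides of Control. For the KDM5C guide the same fit gave none of the other 9 members an adjusted p under 0.05, against 0.00791% of all genes, or an unadjusted p under 0.05, against 11.1%, and no member was without overlap, against 10.7%.

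ICAM1 and CD44 had the highest r of any pair of members, 0.90 over the 7 libraries, followed by VCAM1 and CD47 at 0.83. With all 7 libraries no other member reached an r of 0.5 with MCAM, while ICAM1, CD44 and L1CAM were higher together in the libraries labelled with a TRIM11 guide. MCAM had its 3 lowest values among these libraries, but in DKD1 it was at 32.2 FPKM, above the 28.1 of Control.

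Whether the effect of a KDM5C guide on a member differed with and without a TRIM11 guide was tested as an interaction over the 7 libraries. None of the other 9 members had an adjusted or an unadjusted p under 0.05, against 0.0158% and 5.49% of all genes in limma. The interaction of MCAM was -0.81 (SE 0.58) and that of BCAM 0.80 (SE 0.39), on the log2(FPKM + 1) scale. Without KDM5C-KD2 they were -0.34 and 0.41, and without KDM5C-KD1 -1.28 and 1.20. BCAM was lower than Control in both KDM5C-KD lines and slightly higher in both DKD lines than in the TRIM11-KD line with the same TRIM11 guide.

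Other adhesion genes were read from lists written with the results of these data known, and they are described by counts and medians beside all genes. Of 40 other adhesion molecules, mostly of the immunoglobulin superfamily, 22 passed the filter. Against Control in both lines, 2 were higher and 3 lower in KDM5C-KD, 2 were higher and 2 lower in TRIM11-KD, and 3 were higher and 3 lower in DKD, where 9.2%, 5.83% and 10.6% of all genes were called. The median log2 ratio of KDM5C-KD was -0.11, against -0.01 for all genes. Between libraries with and without a TRIM11 guide, 1 of the 22, CXADR, was higher with no overlap, against 4.2% of all genes. Lower with no overlap were 4, ESAM, CD276, PTK7 and CD99L2, against 4.55%.

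In KDM5C-KD the 2 higher were EPCAM and SIRPA, and the 3 lower were ICAM3, PVRL1 and EMB. EPCAM, an epithelial adhesion molecule, was at 4.03 FPKM in Control, 10.3 and 12.1 in KDM5C-KD and up to 12.3 in DKD, with no more than 6.77 in TRIM11-KD. ESAM, a junction molecule of endothelium, was at 44.2 FPKM in Control, 28.1 and 11.4 in TRIM11-KD and 19.3 and 9.39 in DKD, with 43.2 and 31.2 in KDM5C-KD. CXADR, the receptor of coxsackie viruses and adenoviruses, was at 1.69 FPKM in Control, 2.84 and 4.79 in TRIM11-KD and 5.73 and 5.57 in DKD, with 2.32 and 0.262 in KDM5C-KD. PTK7, a kinase-like receptor, was 45.0 FPKM in Control and 21.7 to 37.1 in the 6 knockdown libraries.

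The order of MCAM was shown by 3 of these 22, PVR, CD276 and CLMP, near the share of all genes, and its mirror by CD58. Of the 22, 6 had r with MCAM of at least 0.5 and 4 of -0.5 or lower, with a median of 0.10 against 0.01 for all genes. The highest were CD276 at 0.96 and PVR and NPTN at 0.95, and without KDM5C-KD2 they were 0.86, 0.83 and 0.85. An r of at least 0.9, a limit set after these values were seen, was reached by these 3 of 22 and by 1.91% of all genes. The size of a change does not enter r. CD276 ran only from 19.6 FPKM in TRIM11-KD2 to 26.9 in KDM5C-KD2, and NPTN from 39.7 to 58.4 in the same libraries. NPTN did not have the order of MCAM, with KDM5C-KD1 at 46.7 FPKM and Control at 47.3. PVR, the poliovirus receptor, named here after its values were seen, was at 53.1 FPKM in Control, 55.8 and 55.2 in TRIM11-KD, 68.8 and 101 in KDM5C-KD, and 55.9 and 47.7 in DKD.

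Of the cadherins and catenins, the calcium-dependent molecules of cell junctions, 12 of 22 passed the filter. CDH4 and CDH24 were higher and FAT4 lower in KDM5C-KD, none was called in TRIM11-KD, and CDH4 was the 1 called in DKD, against 9.2%, 5.83% and 10.6% of all genes. CDH4 went from 15.9 FPKM in Control to 33.9 and 39.8 in KDM5C-KD, with 28.2 and 25.9 in DKD and 19.7 and 22.9 in TRIM11-KD. Their median log2 ratio in KDM5C-KD was -0.10. With a TRIM11 guide 1 of the 12, CTNNA1, was lower with no overlap, against 4.55% of all genes, and none was higher.

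Of 29 ligands and partners of the members, 22 passed the filter. THBS1, a matrix protein that binds CD47, was at 565 FPKM in Control, 1087 and 1499 in TRIM11-KD, 721 and 506 in KDM5C-KD, and 1128 and 1177 in DKD, and was the 1 partner called higher in TRIM11-KD and in DKD. LAMA4, a chain of a laminin that MCAM binds, was called lower in TRIM11-KD, at 2.49 FPKM in Control and 1.41 and 0.421 in TRIM11-KD. WNT5A, KDR and HAS3 were called lower in KDM5C-KD, where WNT5A went from 0.425 FPKM to 0.0508 and 0.0135. These 3 calls rest on low values. WNT5A was above the 0.5 FPKM of the filter only in TRIM11-KD2, at 0.847, and DKD2, at 1.69. HAS3 was at 0.549 to 1.17 FPKM in the libraries. KDR, the growth factor receptor that acts with MCAM in endothelium, was under 1 FPKM in every library. In DKD, LGALS3, KDR, HAS3, SLC16A7 and ITGB2 were called lower. The called partners were thus 2 of 22 in TRIM11-KD, 3 in KDM5C-KD and 6 in DKD, beside the 5.83%, 9.2% and 10.6% of all genes. With a TRIM11 guide 2 of the 22, THBS1 and PPIB, were higher with no overlap, against 4.2% of all genes. Lower with no overlap were 4, LGALS3, EZR, MSN and TJP1, against 4.55%.

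Because ICAM1 and VCAM1 are targets of NF-kappaB, 20 NF-kappaB and cytokine genes were set beside them, of which 19 passed the filter. The study had picked several of these cytokines on the same libraries, so their direction is not independent evidence. In KDM5C-KD 5 were lower than Control and none higher, CXCL1, CXCL8, IL6, CCL2 and CSF2, with a median log2 ratio of -0.63 for the list, and 9.2% of all genes were called in either direction. In TRIM11-KD 2 were higher, TNFAIP2 and IL1B, with a median of 0.30, and in DKD 1 was higher, CCL2, with a median of 0.21, against 5.83% and 10.6% of all genes called. IL6 was at 113 FPKM in Control, 185 and 150 in TRIM11-KD, 72.5 and 39.3 in KDM5C-KD, and 116 and 83.1 in DKD. CXCL8 was at 32.8, then 54.4 and 42.0, then 18.0 and 2.65, and then 110 and 14.4 FPKM in the same order. With a TRIM11 guide the list was 0.69 higher by its median log2 difference, against -0.01 for all genes, and 1 of the 19, TNFAIP2, was higher with no overlap, against 4.2% of all genes. TNFAIP2 was at 49.7 to 57.6 FPKM with a TRIM11 guide and at 26.6 to 36.8 without, as ICAM1 was also separated.

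The positive regulators of cell migration that the study showed beside MCAM had been chosen for their values in these libraries. Of the 9, 8 were called higher in KDM5C-KD and 7 shared the order of MCAM, which the choice fixes. None was an adhesion molecule of the immunoglobulin superfamily. MYLK, the myosin light chain kinase, was at 36.5 FPKM in Control, 80.9 and 120 in KDM5C-KD and 48.8 and 55.3 in DKD.

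The mouse counterparts were measured in tumors, while the study picked MCAM on the human libraries. The other members were chosen with earlier results of these data known. Trim11 was at 37.1 ± 1.84 FPKM (SD, n = 3) in Trim11+/+ tumors and 23.2 ± 0.660 (SD, n = 3) in Trim11+/- tumors, with no overlap. Mcam (ENSMUSG00000032135.15, mm10 chr9:44134469-44142727, plus strand) was at 35.9, 24.2 and 27.6 FPKM in the Trim11+/+ tumors and at 25.2, 30.2 and 27.8 in the Trim11+/- tumors. The genotypes overlapped, with means of 29.2 ± 6.00 (SD, n = 3) and 27.8 ± 2.50 (SD, n = 3), a ratio of 0.950 (two-sided exact permutation test, p = 0.9). In limma the log2 difference was -0.06, with a 95% confidence interval from -0.43 to 0.32 and an adjusted p of 0.961. By quantitative RT-PCR on more tumors per genotype, the study reported lower Mcam with Trim11 deficiency. The assays were not compared here.

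Tumors hold several cell types, so that fewer cells of a type and less RNA per cell cannot be told apart. The Trim11+/+ tumor with the highest Mcam also had the highest sum of 8 markers of pericytes and smooth muscle. That sum was 249 FPKM, against 72.4 to 105 in the other 5 tumors. Over the 6 tumors Acta2 ranged from 17.0 to 138 FPKM and Tagln from 16.2 to 63.2. Rgs5 ranged only from 8.15 to 16.6 and Pdgfrb from 2.68 to 5.06. The high sum thus rests mostly on Acta2 and Tagln, and its part in the level of Mcam was not tested. The sum of 8 endothelial markers was 25.4 to 36.1 FPKM in Trim11+/+ and 21.0 to 32.3 in Trim11+/- tumors.

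Icam1 was the 1 counterpart without overlap, against 13.4% of all genes, at 3.46, 3.95 and 3.63 FPKM in Trim11+/+ and 2.39, 1.20 and 2.58 in Trim11+/- tumors. All 3 Trim11+/- tumors were lower, with p = 0.1 in the same exact test, which cannot go lower with 3 against 3. The limma log2 difference was -0.65 (SE 0.21), with an adjusted p of 0.647, and -0.42 without the Trim11+/- tumor of lowest Icam1. It was the 1 counterpart with an unadjusted p under 0.05, against 6.94% of all genes, and no counterpart had an adjusted p under 0.05, against 0.00577%. Its direction was opposite to that of ICAM1 in the cell lines labelled with a TRIM11 guide, and the difference between the systems was not tested. The sum of 7 leukocyte markers was 22.5 to 26.7 FPKM in Trim11+/+ and 16.0 to 24.7 in Trim11+/- tumors, and its part in the level of Icam1 was not tested. Of these 7 markers, 2 did not overlap between the genotypes, against 13.4% of all genes. F11r and Bsg were much alike in all 6 tumors, at 61.1 to 79.9 and 269 to 287 FPKM.

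**Figure D4:**
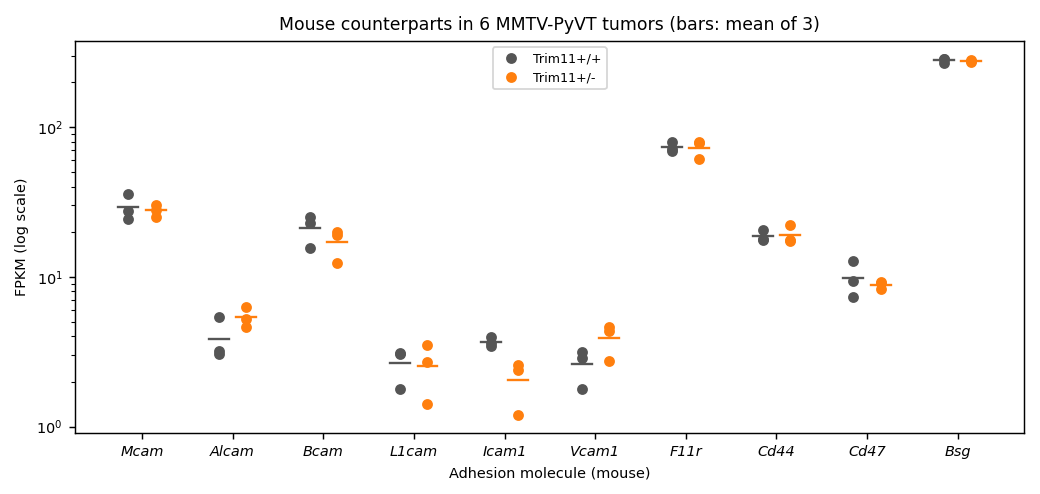
FPKM on a log scale (vertical axis) of the mouse counterparts of the 10 adhesion molecules (horizontal axis) in 3 Trim11+/+ (gray) and 3 Trim11+/- (orange) tumors, 1 point per tumor and a bar at the mean. The genotypes overlap for Mcam (24.2 to 35.9 and 25.2 to 30.2) and do not for Icam1 (3.46 to 3.95 and 1.20 to 2.58).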

How the data were processed

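RNA was poly(A)-selected and sequenced without strand on an Illumina NovaSeq. The authors trimmed the reads with Cutadapt after FastQC, mapped them with HISAT2 to hg19 or mm10 and deposited FPKM values, for which the methods name Cufflinks, in 1 table per species. The submitters' processing notes name Bowtie 0.12.2, a tool of no step used here. Depth and counting error are not given by these values. FPKM corrects for length and total, so that a few abundant genes can shift all others.

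Of the 26006 human rows, 27 with symbols turned into dates were left out, and of several rows with 1 symbol the row of highest mean was used. Genes with a mean of at least 0.5 FPKM were kept, 12636 human and 17328 mouse. Against the 1 Control library a fold of 1.5 in both lines was asked for, with no test. Other contrasts used limma 3.58.1 in R 4.3.3 (lmFit, eBayes with trend) on log2(FPKM + 1), adjusted by the Benjamini-Hochberg method over all genes. Python 3.11.15 with pandas 2.3.3, numpy 2.4.6, scipy 1.17.1 and matplotlib 3.10.9 did the rest. Replicates are lines or tumors by the labels.

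Members, lists and rules were chosen with earlier results of these data known. The genes named are the members, the targeted genes, the 5 most and least like MCAM, its nearest 3 neighbors on each side by matched symbol, and up to 4 called genes of each list and comparison. Counts of 5 or fewer, and genes named as examples beyond this, were named after their values were seen. Alternatives were pseudocounts, filters, scaling by median ratios, a fold of 2, both lines averaged, eBayes without trend, other sets of groups in the fit, a replicate block and leaving out each library. The grouping by guide, and likeness without the 2 farthest libraries, were added after the data were seen. ChIP-Seq data were not analysed here.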

Additional observations from a re-analysis of the deposited data

Results flagged for a closer look

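BCAM was the 1 member whose KDM5C guide effect pointed in opposite directions with and without a TRIM11 guide in every line. How many of all genes did so was not counted, so this count has no share of all genes beside it. The KDM5C-KD lines 1 and 2 had a log2 ratio to Control of -0.28 and -1.12. Its log2 ratio to the TRIM11-KD line with the same TRIM11 guide was 0.13 in DKD1 and 0.17 in DKD2. The interaction in limma was 0.80 (SE 0.39) on the log2(FPKM + 1) scale, with an adjusted p of 0.879, so the difference was not shown by the test, and it was 0.41 without KDM5C-KD2 and 1.20 without KDM5C-KD1. The 2 ratios to Control share 1 library. KDM5C-KD1 had KDM5C guide 1 and the other 3 libraries with a KDM5C guide had guide 2.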

How the results depend on the processing

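No member passed an adjusted p of 0.05 in limma in any comparison under any alternative, and the smallest adjusted p was 0.114, for BCAM between KDM5C-KD and DKD without KDM5C-KD1. Of 860 member differences under alternatives, 68 changed direction and 792 did not. On leaving out 1 library, the difference between DKD and TRIM11-KD ranged from -0.25 to 0.51 for MCAM, where it was 0.13 with all, and from -0.22 to 0.12 for ICAM1, that of VCAM1 with a TRIM11 guide from -0.067 to 1.60, and that of Mcam in tumors from -0.18 to 0.10. Between KDM5C-KD and DKD that of MCAM ranged from 0.66 without KDM5C-KD2 to 1.61 without KDM5C-KD1, and between KDM5C-KD and TRIM11-KD from 0.80 to 1.74 without the same lines.

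The count of members called against Control, 0 in each group, was 3 in TRIM11-KD, 4 in KDM5C-KD and 2 in DKD by the mean of the 2 lines, and ranged from 2 to 3, 0 to 4 and 2 to 3 with 1 line left out, a rule that then asks for 1 line only. MCAM was called with KDM5C-KD2 alone and not with KDM5C-KD1 alone. The order of MCAM was shared by 1 to 2 members on leaving out 1 library, with ALCAM added without KDM5C-KD2. Of all genes, 20.2% had this order without KDM5C-KD2, 30.3% without KDM5C-KD1, 17.3% without DKD1 and 19.2% without DKD2. Of the 9 others, 7 had a negative r with MCAM, against 49.5% of all genes. Without the 2 libraries farthest from the median of MCAM 4 had, and the share of all genes was not counted there. No overlap by TRIM11 guide held for ICAM1, CD44 and L1CAM in every set, and MCAM became separate without DKD1 or without Control, giving 3 to 4 members.

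Deviations of same-numbered lines had r of 0.09 for TRIM11-KD with KDM5C-KD, 0.37 for TRIM11-KD with DKD, which share the TRIM11 guide, and 0.27 for KDM5C-KD with DKD, and those of tumors -0.33, 0.04 and -0.13, so the numbers were not shown to pair. With a replicate block 0 members passed the adjusted threshold in each comparison, and ICAM1 kept -0.82 between KDM5C-KD and DKD with a limma adjusted p of 0.237.

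Over all genes, 1162 were called in KDM5C-KD against Control, 467 at a fold of 2 and 3102 with KDM5C-KD2 alone.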
